A study of Mus musculus with 6 samples.

Results

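The epithelial and the mesenchymal state of CT26 cells, a mouse colon carcinoma line, were read by RNA sequencing from 10 genes that mark them: the transcription factor genes Snai1, Snai2, Zeb1, Zeb2 and Twist1, the vimentin gene Vim, the N-cadherin gene Cdh2, and the keratin genes Krt8, Krt18 and Krt20. They were chosen by symbol, and all 10 had a row among the 57010 in the table of counts. Cells with a guide to Cdk10 (sgCdk10, 3 libraries) were compared with cells with a control guide (sgControl, 3 libraries); Cdk10 encodes a cyclin-dependent kinase. All 6 libraries are of the same line. The sources used here give neither the guide's target site, nor whether the cells were a pool or a clone, nor the time since editing.

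In an epithelial to mesenchymal transition (EMT), cells loosen the junctions built on E-cadherin, lose keratin filaments, and turn to N-cadherin and to vimentin, the intermediate filament of mesenchymal cells. The zinc finger proteins of the Snail and ZEB families and the helix-loop-helix protein TWIST1 drive this change, and the first 2 families repress E-cadherin by binding E-box motifs. Keratins 8 and 18 pair with each other in the filaments of simple epithelia, and keratin 20 is typical of differentiated intestinal cells. Carcinoma cells can hold genes of both states together.

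Total counts ran from 17532202 to 19258309 per library, and Cdk10 itself fell in sgCdk10, with 204, 227 and 202 counts in sgCdk10 against 381, 344 and 365 in sgControl (log2 fold change -0.82, SE 0.08; adjusted p = 8.4e-09, edgeR). Exons of Cdk10 overlap those of Gm45842 and Spata2l, whose reads the counting may have split. One library stood apart: sgControl replicate 3 differed from the other sgControl libraries with 4.30 and 4.36 as chi-square over degrees of freedom, against 1.53 to 1.61 for the other pairs of replicates. The results below are therefore also given without it where that changed a call. Of 13442 genes tested with edgeR's quasi-likelihood test and Benjamini-Hochberg adjustment, 42.5% were called at an adjusted p below 0.05, 22.1% as higher and 20.4% as lower in sgCdk10. The median log2 fold change (sgCdk10 over sgControl) over these genes was -0.003. The labels do not say whether replicates are separate cultures, so p-values reflect the spread among these 6 libraries alone, and it may be technical.

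Of the 10 genes 9 passed the filter on low counts, of which 5 rose in sgCdk10 (Snai1, Krt18, Krt20, Twist1 and Zeb2), Snai2 fell, and Vim, Cdh2 and Zeb1 were not called. The share of genes called as higher was 22.1% of the 13442 tested, and the groups did not overlap in 51.4% of tested genes, against 6 of these 9. The median log2 fold change over the 9 was 0.17. In only 3 of them, Snai1, Krt18 and Krt20, did the difference reach 0.5 on the log2 scale, a size at which 7.71% of tested genes were called. Genes from each side of the transition thus stood among the rises, and a Snail factor stood alone among the falls.

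**Figure D1:**
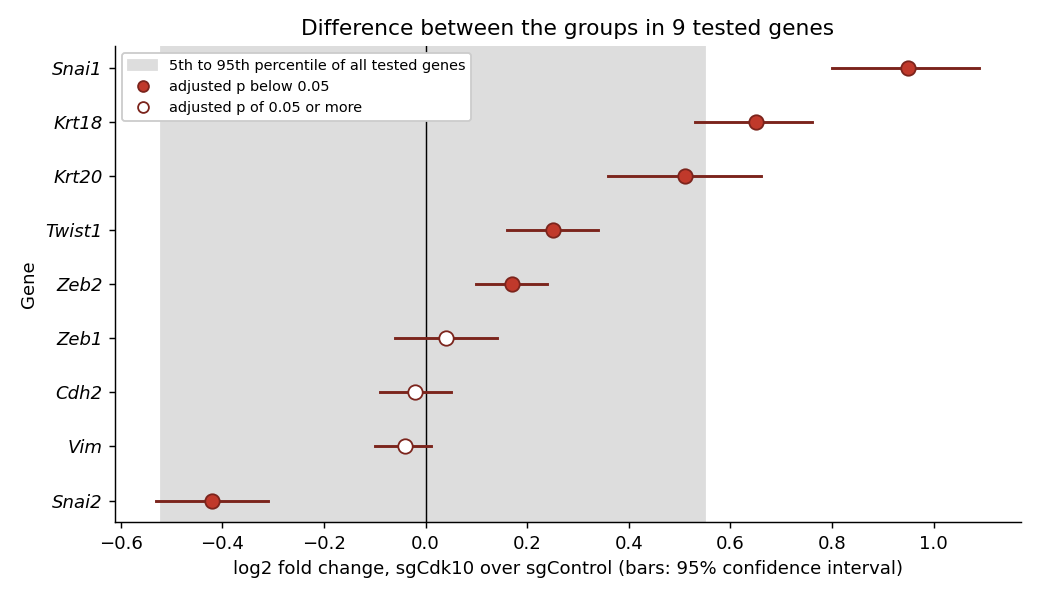
Log2 fold change of each tested gene, sgCdk10 over sgControl, with its 95% confidence interval from the edgeR fit. Filled points passed the adjusted p threshold and open points did not. The grey band spans the 5th to the 95th percentile of all tested genes, -0.52 to 0.55. Snai1 at 0.95 and Krt18 at 0.65 lie above that band.

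The line's levels were compared between genes per length, as RPKM (counts scaled to library size and divided by the length of the merged exons). Vim was far above the rest, at 773 ± 18.8 RPKM in sgCdk10 and 797 ± 8.09 in sgControl (SD, n = 3 each), higher than 98.3% of tested genes in each group. Twist1 came next, at 33.2 ± 0.713 RPKM in sgCdk10 and 27.8 ± 0.804 in sgControl. In sgCdk10 the order after it was Krt18 (26.1 RPKM), Cdh2 (16.3), Snai1 (14.9), Snai2 (14.6), Krt20 (10.1), Zeb2 (4.98), Zeb1 (4.40) and Krt8 (0.279). Only the ranges of Snai1 and Snai2 overlapped between neighbours in that group, so that pair did not differ beyond its spread. In sgControl the order after Twist1 was Snai2 (19.5 RPKM), Krt18 (16.6), Cdh2 (16.6), Snai1 (7.73), Krt20 (7.11), Zeb2 (4.43), Zeb1 (4.27) and Krt8 (0.172). The library ranges of Krt18 and Cdh2, of Snai1 and Krt20, and of Zeb2 and Zeb1 overlapped there, so those pairs did not differ beyond their spread. Krt18 and Snai1 stood higher in the order of sgCdk10 and Snai2 lower. With the length of the longest transcript in place of merged exons, 4 of the 10 levels moved by over 1.5 times. Vim was then at 1253 RPKM in sgCdk10 and 1292 in sgControl, and Cdh2 at 27.2 RPKM in sgCdk10 and 27.6 in sgControl. Zeb2 was at 10.9 RPKM in sgCdk10 and 9.67 in sgControl, and Zeb1 at 7.79 RPKM in sgCdk10 and 7.56 in sgControl. With these lengths Vim and Twist1 still came first, Cdh2 came before Krt18 in each group, and Zeb2 came before Krt20. In sgControl, Zeb2 then also came before Snai1, and Zeb1 before Krt20.

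**Figure D2:**
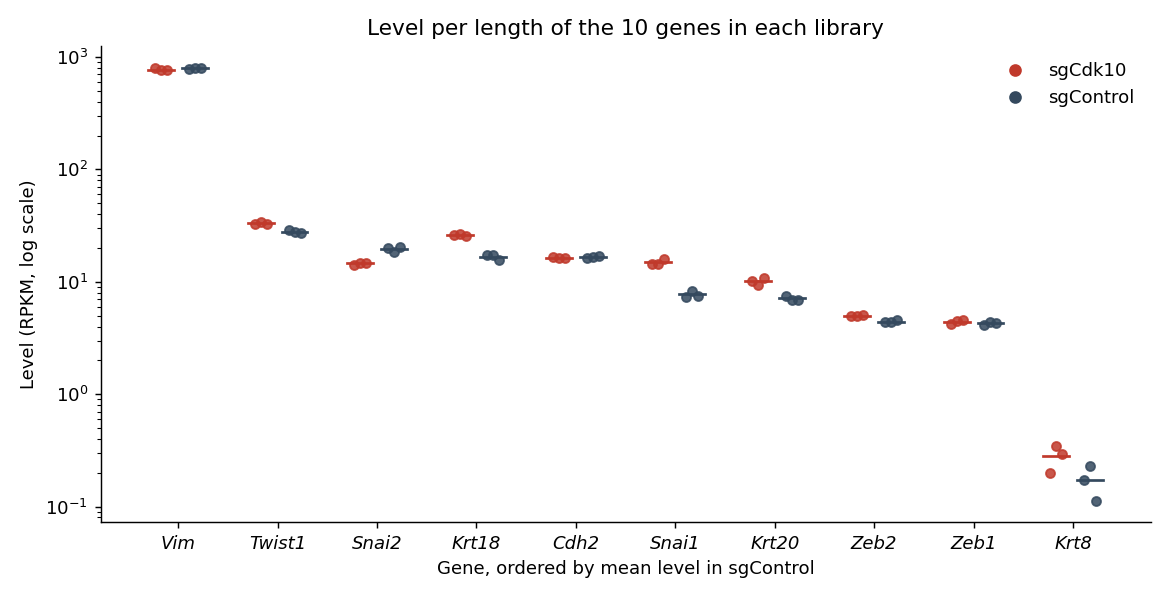
Level per length of each of the 10 genes in every library, in RPKM on a log scale, with sgCdk10 left of sgControl. Points are libraries and short lines are group means. Vim lies at 761 to 806 RPKM in all 6 libraries, and Krt8 lies at 0.113 to 0.349 RPKM.

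The epithelial side of the line was nearly silent apart from these keratins. Cdh1, the E-cadherin gene, had 0, 1 and 1 counts in sgCdk10 and 0, 0 and 0 in sgControl, and Epcam, an epithelial adhesion gene, had 0 counts in all 6 libraries. At these depths 3 counts, taken as the floor of detection, equal 0.156 to 0.171 CPM, which bounds what a count of 0 allows and covers counting error only. Of 8 epithelial markers 3 had 0 counts throughout (Epcam, Cldn3 and Cldn4) and none passed the filter. Their summed level was 0.398 to 0.662 CPM in sgCdk10 and 0.226 to 0.606 CPM in sgControl. Of 7 markers of colon epithelium, Muc2 alone was tested, and the sum was 0.828 to 1.04 CPM in sgCdk10 and 0.992 to 1.30 in sgControl. The labelled origin, colon carcinoma, is thus not visible in those defining markers. Markers of fibroblasts, which mesenchymal carcinoma cells can share, summed to 151 to 155 CPM in sgCdk10 and 123 to 140 in sgControl, with Lum and Thy1 at 0 in all libraries. Leukocyte markers summed to at most 0.104 CPM in sgCdk10 and 0.282 in sgControl, with Cd3e and Adgre1 at 0. Endothelial markers summed to at most 0.796 CPM in sgCdk10 and 1.13 in sgControl, with Tie1 at 0. The part of the fibroblast genes in the results below was not tested.

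Snai1, the gene of SNAIL, rose most. Its counts were 419, 411 and 497 in sgCdk10 and 211, 239 and 221 in sgControl, or 23.1, 23.4 and 25.8 CPM in sgCdk10 and 11.9, 13.5 and 12.2 CPM in sgControl. The lowest sgCdk10 library was well above the highest sgControl library. The rise was 1.93-fold, a log2 fold change of 0.95 (SE 0.07; 95% interval 0.80 to 1.09; adjusted p = 1.4e-10, edgeR). In size it exceeded 97.9% of tested genes. Since the cells were sequenced in bulk, more RNA per cell and more cells with the RNA cannot be told apart. SNAIL protein is short-lived and controlled by degradation as well, so these counts do not measure it.

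Snai1 (ENSMUSG00000042821) occupies 167538195 to 167542814 of chromosome 2 (GRCm38, plus strand), with 3 merged exons. No exon of another gene overlaps its exons in GENCODE M21. Human SNAIL is known to bind an E-box in the promoter of its own gene, so the 250 bases before the start site are shown, from RefSeq on GRCm38.p6 (chr2:167537945-167538194, plus strand). Capitals mark the E-box CACCTG, which begins 126 bases before the start.
Snai1: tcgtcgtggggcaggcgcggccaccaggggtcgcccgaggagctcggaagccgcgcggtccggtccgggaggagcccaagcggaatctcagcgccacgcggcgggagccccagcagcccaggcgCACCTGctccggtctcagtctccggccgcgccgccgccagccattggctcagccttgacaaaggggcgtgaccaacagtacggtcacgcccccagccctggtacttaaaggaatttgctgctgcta
An E-box, searched as CACCTG on either strand, was found in 17.2% of the 32851 promoter windows of the table, each read over the 250 bases before its start. Windows were at hand for 7 of the 10 genes (Snai1, Zeb2, Twist1, Vim, Krt8, Krt18 and Krt20), with 10 windows in all, since Zeb2 has 4. Snai1, Krt8 and Krt18 held the E-box, in 3 of these 10 windows. The starts are those of RefSeq and can differ from those of GENCODE. By the GENCODE coordinates the window of Vim and some windows of Zeb2 lie within the gene. Those of Krt8 and Krt18 reach into it. The AP-1 motif TGANTCA was in 1 of the 10 windows (at 1 start of Zeb2), against 6.75% of all windows. The EGR motif, searched on either strand as GCGTGGGCG or GCGGGGGCG, was in 0 of the 10, against 3.06% of all windows. A match describes the letters and is not a measured binding site.

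Snai2, the gene of the paralog SLUG, moved the other way. It had 28.7, 30.0 and 29.9 CPM in sgCdk10, against 40.2, 37.3 and 40.9 CPM in sgControl. All sgCdk10 libraries were below all sgControl libraries. The log2 fold change was -0.42 (SE 0.05; 95% interval -0.53 to -0.31; adjusted p = 6.3e-07, edgeR), or 0.749-fold. Snai2 occupies 14705852 to 14709385 of chromosome 16 (GRCm38, plus strand), with 3 merged exons and no overlap with exons of another gene.

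Per length, the ratio of Snai1 to Snai2 was 1.00, 0.972 and 1.07 in the sgCdk10 libraries and 0.369, 0.451 and 0.371 in the sgControl libraries. The groups did not overlap: the Snail genes were near parity in sgCdk10, and Snai2 was in excess in sgControl. On the log2 scale the difference of the ratio was 1.36 (exact two-sided permutation test, p = 0.1, the smallest that 3 against 3 libraries allow; adjusted over 5 ratios, p = 0.167). This ratio is taken within a library and does not depend on scaling to its total.

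**Figure D3:**
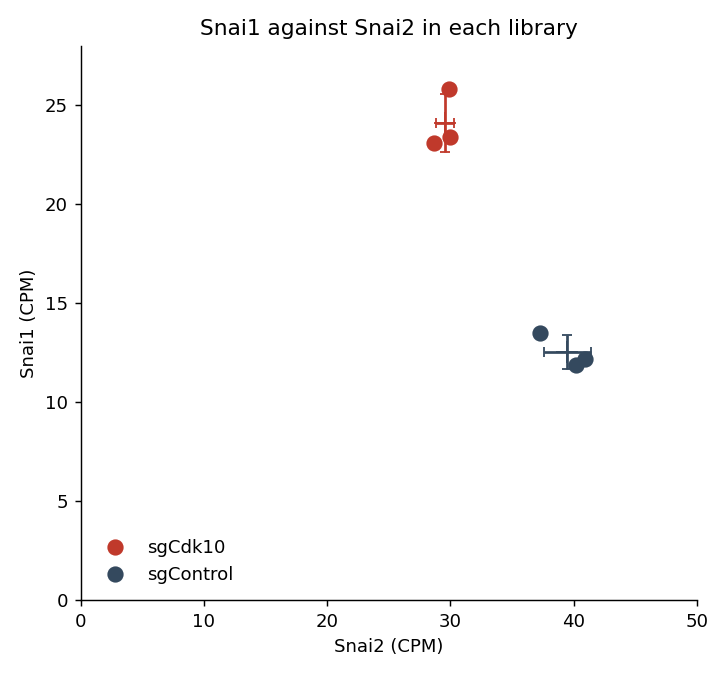
Snai1 (vertical axis, CPM) against Snai2 (horizontal axis, CPM), one point per library, with crosses for the group means and bars for the SD over 3 libraries. The sgCdk10 libraries lie at 23.1 to 25.8 CPM of Snai1 and 28.7 to 30.0 CPM of Snai2, and the sgControl libraries at 11.9 to 13.5 and 37.3 to 40.9 CPM.

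Twist1, a helix-loop-helix factor of mesoderm and neural crest, rose by a smaller amount. Its level was 53.2, 55.3 and 53.5 CPM in sgCdk10 and 46.8, 44.8 and 44.3 CPM in sgControl, without overlap. The log2 fold change was 0.25 (SE 0.04; adjusted p = 6.0e-05, edgeR), or 1.19-fold. Twist1 spans 33957671 to 33959829 of chromosome 12 (plus strand, GRCm38).

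The ZEB genes encode zinc finger repressors of E-cadherin. Zeb2 had 98.6, 98.3 and 101 CPM in sgCdk10 and 86.8, 87.7 and 90.3 CPM in sgControl, without overlap, a log2 fold change of 0.17 (SE 0.03; adjusted p = 0.000317, edgeR). When the fit was corrected for transcript length and GC content, its log2 fold change was 0.09 (adjusted p = 0.0202, edgeR). Its exons share 653 bases with Zeb2os on the opposite strand, and since no source used here gives the strand setting of the counting, reads of the 2 genes cannot be told apart there. Zeb1 had 42.8, 46.0 and 46.7 CPM in sgCdk10 and 42.4, 44.8 and 44.4 CPM in sgControl, with overlapping groups. Its log2 fold change was 0.04 (95% interval -0.06 to 0.14; adjusted p = 0.51, edgeR), and -0.004 after the GC and length correction. The ratio of Zeb2 to Zeb1 per length was 1.19, 1.10 and 1.11 in sgCdk10 and 1.05, 1.01 and 1.05 in sgControl (difference 0.13 on the log2 scale; exact two-sided permutation test, p = 0.1, adjusted p = 0.167). Zeb2 lies on chromosome 2 from 44983632 to 45117395 (minus strand) and Zeb1 on chromosome 18 from 5591860 to 5775467 (plus strand).

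Vimentin and N-cadherin transcripts were not called. Vim, on chromosome 2 from 13573927 to 13582826, had 3770, 3622 and 3609 CPM in sgCdk10 and 3751, 3824 and 3766 CPM in sgControl. The ranges overlapped, and the log2 fold change was -0.04 (95% interval -0.10 to 0.01; adjusted p = 0.174, edgeR). Without sgControl replicate 3 it was -0.05 (adjusted p = 0.0309, edgeR), still within that interval. Cdh2, the N-cadherin gene on chromosome 18 from 16588877 to 16809246, had 134, 131 and 131 CPM in sgCdk10 and 131, 133 and 137 CPM in sgControl. Its log2 fold change was -0.02 (95% interval -0.09 to 0.05; adjusted p = 0.634, edgeR). These intervals are narrow beside the 0.95 of Snai1.

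The keratins of simple epithelia were unequal in level. Krt18, the type I partner, had 37.2, 38.6 and 36.6 CPM in sgCdk10 and 24.8, 24.7 and 22.3 CPM in sgControl, without overlap. It rose by a log2 fold change of 0.65 (SE 0.06; 95% interval 0.53 to 0.76; adjusted p = 1.4e-09, edgeR), or 1.57-fold. Krt8, its type II partner, had 7, 12 and 11 counts in sgCdk10 and 6, 8 and 4 in sgControl. These counts are above the floor of 3, the groups overlapped, and the gene did not pass the filter. With no filter its log2 fold change was 0.69 (SE 0.45; 95% interval -0.20 to 1.58; adjusted p = 0.373, edgeR), so a difference as large as that of Krt18, or none, could not be told apart at this depth. Per length Krt18 was above Krt8 by 131-fold, 77.1-fold and 87.3-fold in the sgCdk10 libraries and by 99.9-fold, 74.4-fold and 138-fold in the sgControl libraries. The difference of this ratio was -0.07 on the log2 scale (exact two-sided permutation test, p = 0.8; adjusted p = 0.8), and it was 0.15 without sgControl replicate 3 and 0.09 without sgCdk10 replicate 2. The genes are neighbours on chromosome 15, Krt8 from 101996698 to 102004482 on the minus strand and Krt18 from 102028180 to 102032027 on the plus strand. Exons of Krt8 share 101 bases with Gm36026 on the opposite strand, and Krt8-ps is an annotated pseudogene, so its few counts are uncertain.

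Krt20, on chromosome 11 from 99428403 to 99438150 on the minus strand, also rose. It had 19.4, 18.0 and 20.9 CPM in sgCdk10 and 14.4, 13.3 and 13.4 CPM in sgControl. Every sgCdk10 library exceeded every sgControl library. The log2 fold change was 0.51 (SE 0.07; 95% interval 0.36 to 0.66; adjusted p = 4.8e-06, edgeR), or 1.42-fold. Cdx2, a transcription factor of intestinal identity chosen after its values were seen, had 6, 8 and 10 counts in sgCdk10 and 6, 6 and 2 in sgControl. Other genes of the intestine, Klf5 and Cdh17, passed the filter and are given below.

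The promoters of Krt18 and Krt20, the keratins among the 10 genes that rose, are shown for comparison with that of Snai1, since human KRT18 is known to be repressed by SNAIL, again from RefSeq on GRCm38.p6 with CACCTG in capitals. For Krt18 they are the bases chr15:102027966-102028179 (plus strand), where the E-box begins 178 bases before the end of the stretch. For Krt20 they are chr11:99438154-99438403 (minus strand, read 5′ to 3′ along the gene), which hold none.
Krt18: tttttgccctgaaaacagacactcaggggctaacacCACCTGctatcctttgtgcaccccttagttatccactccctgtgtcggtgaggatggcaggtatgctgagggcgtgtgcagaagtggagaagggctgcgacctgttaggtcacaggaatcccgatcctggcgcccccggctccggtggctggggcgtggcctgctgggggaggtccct
Krt20: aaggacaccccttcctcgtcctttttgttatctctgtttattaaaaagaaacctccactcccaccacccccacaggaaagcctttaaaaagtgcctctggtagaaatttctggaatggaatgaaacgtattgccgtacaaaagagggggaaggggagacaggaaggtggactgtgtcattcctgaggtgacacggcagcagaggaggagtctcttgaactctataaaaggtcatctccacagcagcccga
Both of these keratins rose, and Krt8, whose window also held the E-box, did not pass the filter. Any part of the motif in these differences was not tested.

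Across the keratin family, type I transcripts were more abundant in sum than type II transcripts when divided by merged exon length. Type I had 27 genes among the rows, of which 5 reached 3 counts in any library, and 4 of the 24 type II genes did. Summed over all genes of a type, type I keratins stood at 37.1 ± 0.268 RPKM in sgCdk10 and 24.9 ± 1.31 in sgControl, and type II keratins at 10.9 ± 0.350 in sgCdk10 and 9.23 ± 0.407 in sgControl (SD, n = 3 each). The type II sum was nearly all Krt80, which rose by 0.25 on the log2 scale (SE 0.04, adjusted p = 9.1e-05, edgeR). It stood at 10.6 RPKM in sgCdk10 and 8.92 RPKM in sgControl. Its merged exons hold 6393 bases, against 1437 for Krt18. In CPM, not divided by length, Krt80 stood at 67.6 in sgCdk10 and 57.0 in sgControl. Krt18 was then at 37.5 and 23.9 CPM, and Krt20 at 19.5 and 13.7 CPM. The order of the sums therefore depends on the lengths used. Krt10, a type I keratin of the epidermis, was called as lower with overlapping groups, at 26, 31 and 17 counts in sgCdk10 and 45, 31 and 35 in sgControl (log2 fold change -0.62; adjusted p = 0.0475, edgeR). DESeq2 (adjusted p = 0.171) and limma-voom (adjusted p = 0.0566) did not call it. It was not called by edgeR with non-robust dispersions (adjusted p = 0.0685) or the replicate block (adjusted p = 0.0526), or without sgControl replicate 1 (adjusted p = 0.216), sgCdk10 replicate 1 (adjusted p = 0.0864) or sgCdk10 replicate 3 (adjusted p = 0.259, log2 fold change -0.37). Krt19, a common marker of simple epithelia, had 3, 3 and 4 counts in sgCdk10 and 0, 1 and 1 in sgControl, too few for the filter.

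**Figure D4:**
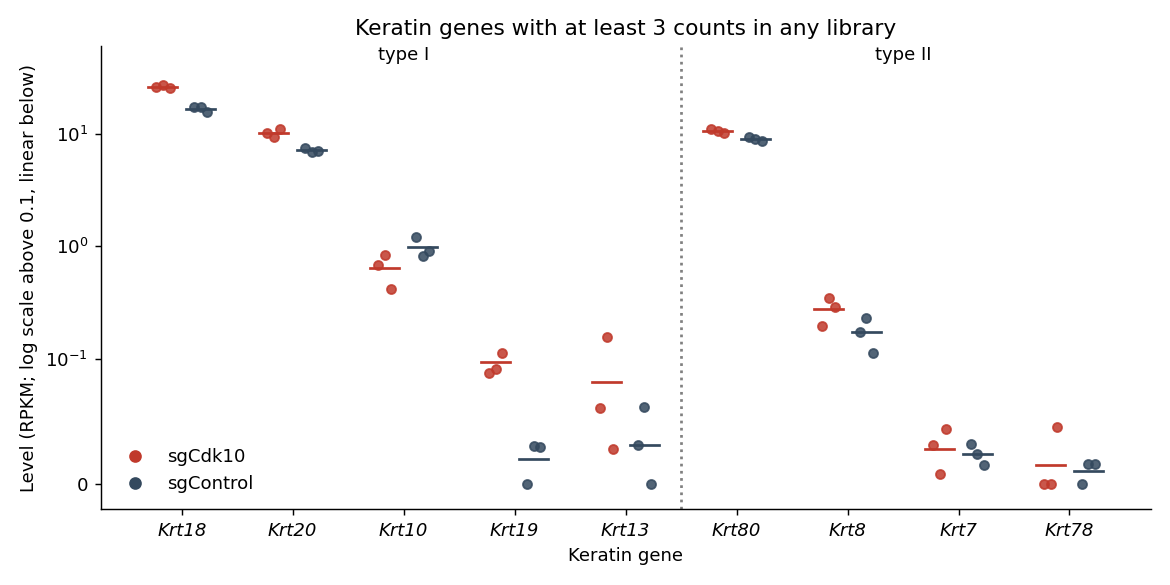
Level per length (RPKM, log scale above 0.1 and linear below) of the 9 keratin genes with at least 3 counts in any library, type I left and type II right of the dotted line, sgCdk10 left of sgControl. Points are libraries and lines are group means. Krt18, Krt20 and Krt80 stand above the others, and Krt8 is at 0.113 to 0.349 RPKM.

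Vimentin remained the dominant filament gene, and its ratio to Krt18 was lower in every sgCdk10 library than in any sgControl library. Per length Vim exceeded Krt18 by 30.7-fold, 28.4-fold and 29.9-fold in sgCdk10 and by 45.8-fold, 46.9-fold and 51.3-fold in sgControl. The difference of the log2 ratio was -0.69 (exact two-sided permutation test, p = 0.1, adjusted p = 0.167). Over Krt8 the ratio was 4029, 2191 and 2610 in sgCdk10 and 4577, 3493 and 7055 in sgControl, which overlapped (difference -0.76; exact two-sided permutation test, p = 0.2, adjusted p = 0.25). With the longest transcript as length, Vim stands higher against the keratins in each group, while the difference between the groups does not depend on the length used.

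Around the 10 genes, 8 lists of related genes held 73 tested genes, of which 41 rose and 11 fell, or 71.2% against 42.5% of all genes tested. The lists were written with earlier results of these data known, so these shares describe them and are no independent evidence.

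In the list of other EMT transcription factors, which also holds the Id genes of their inhibitors, 6 of 14 tested rose and 3 fell. The median log2 fold change was 0.07, or -0.01 after the GC and length correction. DESeq2 called 4 as higher, and so did edgeR without sgControl replicate 3, where the median was 0.01. Sox4, a factor of stem and progenitor cells, rose by 0.94 (SE 0.05; adjusted p = 2.3e-13, edgeR), to 48.9 ± 1.72 CPM in sgCdk10, against 25.5 ± 0.576 in sgControl (SD, n = 3 each). Prrx1, a homeobox factor of mesenchyme, rose by 0.33 on the log2 scale (SE 0.03). Foxc2, chosen after its values were seen, rose by 1.07 at a low level, 4.39 ± 0.481 CPM in sgCdk10 and 2.09 ± 0.386 in sgControl. The 3 that fell were Id1 (-0.37), and, named after their values were seen, Id3 (-0.35) and Twist2 (-0.25). ID proteins bind helix-loop-helix factors and keep them off DNA. The call of Twist2 was not made without sgControl replicate 2 (adjusted p = 0.0535, edgeR) or sgCdk10 replicate 1 (adjusted p = 0.0601, edgeR). Snai3, the remaining Snail gene, had at most 1 count in any library.

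Cofactors of these factors and enzymes that control their stability were called as higher in 9 of 19 cases and as lower in 4, with a median log2 fold change of 0.10, or 0.06 after the GC and length correction. Without sgControl replicate 3, 10 were called as higher and 3 as lower, and without sgCdk10 replicate 1 or 3, 8 and 2. DESeq2 called 7 as higher and 2 as lower. The replicate block with the GC and length correction gave 7 as higher and 5 as lower. Pak1, whose human kinase is known to phosphorylate SNAIL, rose by 0.73 (SE 0.06; adjusted p = 6.8e-10, edgeR), to 33.5 ± 1.15 CPM in sgCdk10, against 20.2 ± 1.44 in sgControl. Rcor1, the CoREST subunit that joins the demethylase LSD1 in repressor complexes, rose by 0.51 on the log2 scale (SE 0.04) and Limd1, an adaptor of the Ajuba family, by 0.22. The falls were those of Ctbp1 (-0.11, or -0.18 after the GC and length correction), Sin3a (-0.10), Fbxl5 (-0.14) and Fbxo11 (-0.09), picked after seeing their values. Sin3a was not called by DESeq2 (adjusted p = 0.0705) or by edgeR without sgCdk10 replicate 1 (adjusted p = 0.0711) or 3 (adjusted p = 0.0524). Fbxo11 was not called by DESeq2 (adjusted p = 0.109) or without sgControl replicate 3 (0.062) or any 1 sgCdk10 library (0.0517 to 0.132). Also chosen after their values were seen, Gsk3b, the kinase that marks SNAIL for degradation, was at -0.07 (adjusted p = 0.0948, edgeR), and Btrc, a subunit of the ubiquitin ligase that follows it, at 0.07 (adjusted p = 0.329, edgeR).

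Of 21 genes of epithelial junctions and adhesion 5 were tested, and 11 had under 3 counts in every library. Of the 5 tested 3 rose and 0 fell, with a median log2 fold change of 0.34, and 2 were called as higher by DESeq2, after the GC and length correction, or by edgeR without sgControl replicate 3, sgCdk10 replicate 1 or sgCdk10 replicate 3. Tjp1 and Jup, which encode cytoplasmic plaque proteins, were among them. Tjp1, the gene of ZO-1, rose to 298 ± 1.71 CPM in sgCdk10, against 236 ± 3.98 in sgControl (log2 fold change 0.34, SE 0.03; adjusted p = 5.5e-10, edgeR). Jup, the gene of plakoglobin, rose by 0.38 on the log2 scale. Of 17 regulators of epithelial identity 2 were tested. Grhl1 fell by 0.60 on the log2 scale at 2.28 ± 0.445 CPM in sgCdk10 and 3.45 ± 0.255 in sgControl (adjusted p = 0.00822, edgeR), and DESeq2 did not call it (adjusted p = 0.0603), nor did edgeR without sgCdk10 replicate 3 (adjusted p = 0.0665). Klf5, a factor of intestinal crypts, was at -0.10 (adjusted p = 0.0642, edgeR) and was called after the GC and length correction (adjusted p = 0.0458) and without sgControl replicate 3 (0.0388) or sgCdk10 replicate 3 (0.0332).

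All 7 tested genes of the list of other cadherins and catenins rose, with a median log2 fold change of 0.17. DESeq2 called 6 of 7, and 5 to 7 were called with a library left out. Over all tested genes, 22.1% were called as higher, and the median absolute log2 fold change was 0.16. The rises of this list were thus ordinary in size. Vcl, the vinculin gene, rose by 0.22, Ctnnd1, the gene of p120 catenin, by 0.21, and Afdn, the gene of afadin, by 0.15. These proteins couple cadherins of either kind to actin or keep them at the membrane. Afdn was at 0.07 after the GC and length correction (adjusted p = 0.0178, edgeR). Among other intermediate filaments and their linkers 4 of 9 tested rose and 0 fell, with a median of 0.24, against 3 of 9 and a median of 0.01 after the GC and length correction. Without sgControl replicate 3 the median was 0.17, with 4 called as higher and 1, the lamin gene Lmnb1, as lower. Without sgCdk10 replicate 1 or 2, 3 were called as higher. Nes, the gene of nestin, which copolymerises with vimentin, rose to 82.4 ± 4.24 CPM in sgCdk10, against 51.8 ± 4.72 in sgControl (log2 fold change 0.67, SE 0.06; adjusted p = 2.0e-07, edgeR). The linkers Dst and Macf1 rose by 0.28 and 0.24 on the log2 scale. After the GC and length correction Dst was at 0.13 (adjusted p = 2.1e-05, edgeR) and Macf1 at 0.11 (adjusted p = 0.000251, edgeR).

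Of 15 tested mesenchymal genes 11 rose and 2 fell, with a median log2 fold change of 0.27. Without sgControl replicate 3, 10 were called as higher and 1 as lower, with a median of 0.22. The GC and length correction gave the same counts and median. DESeq2 called 11 as higher and 0 as lower. Ccn1, a matrix-associated signalling protein, rose to 177 ± 3.94 CPM in sgCdk10, against 103 ± 1.85 in sgControl (log2 fold change 0.79, SE 0.03; adjusted p = 1.2e-15, edgeR). Fn1, the fibronectin gene, rose by 0.37 on the log2 scale. The falls, picked with their values in view, were those of Col3a1 (-0.41), not called by DESeq2 (adjusted p = 0.0506), and Timp1 (-0.15), not called by DESeq2 (adjusted p = 0.0661) or without sgControl replicate 3 (adjusted p = 0.0983, edgeR, log2 fold change -0.09), sgCdk10 replicate 1 (0.102) or sgCdk10 replicate 3 (0.0943), or after the GC and length correction (0.203, at -0.07). This list shares Col1a1, Col3a1 and Pdgfrb with the fibroblast markers above.

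**Figure D5:**
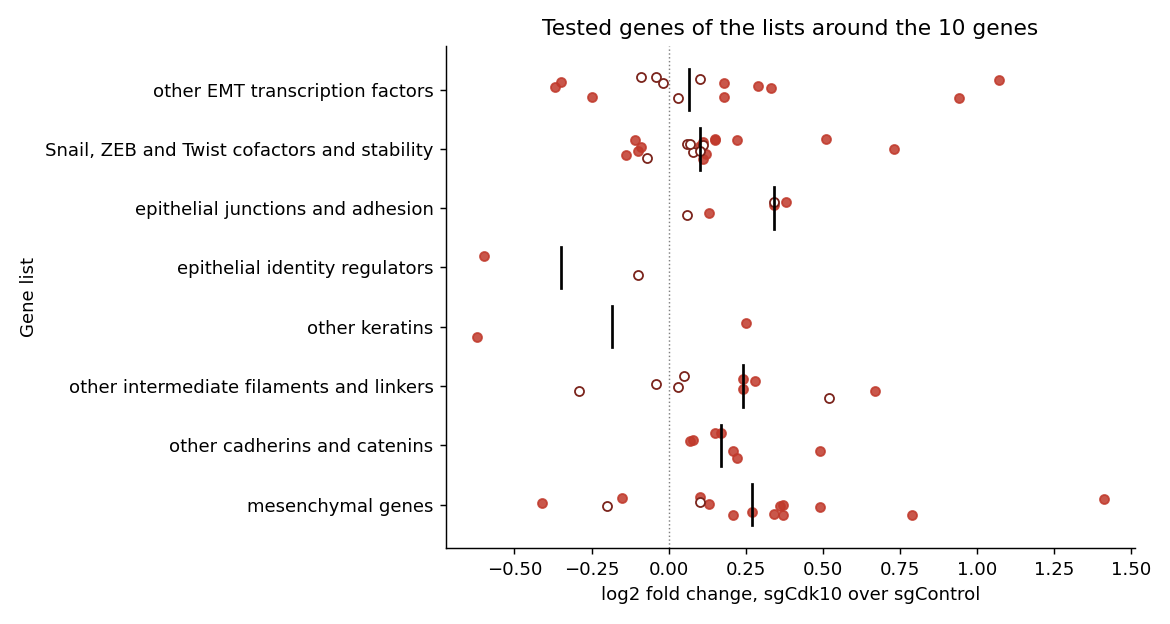
Log2 fold change, sgCdk10 over sgControl, of every tested gene in the 8 lists, one row per list. Filled points passed the adjusted p threshold, open points did not, and the black bars are list medians, which run from -0.35 for 2 epithelial regulators to 0.34 for 5 junction genes. Vertical scatter within a row has no meaning.

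The genes whose profile over the 6 libraries lay closest to that of each member with a difference of at least 0.5 were found by the root mean square distance of centred log2 CPM, among 11064 genes with a symbol that is not a predicted model. For Snai1 they were Sox2 (distance 0.034), Btc (0.044) and Camk2b (0.049), for Krt18 Midn (0.023), Znfx1 (0.023) and Slc16a3 (0.024), and for Krt20 Prkcz2 (0.027), Selenom (0.036) and Ndufv3 (0.038). Sox2, a transcription factor of stem cells, had 44.3 ± 1.68 CPM in sgCdk10 and 22.9 ± 2.33 in sgControl. Midn had 155 ± 2.48 CPM in sgCdk10 and 98.4 ± 3.95 in sgControl. With 6 libraries in 2 groups, such a distance is small for any gene with a like difference between the groups. None of the nearest genes was another of the 10.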

How the data were processed

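RNA of 3 sgCdk10 and 3 sgControl libraries of CT26 cells was sequenced after preparation with a VAHTS Universal V6 kit, per the labels' protocols. The authors deposited 1 table of raw counts per Ensembl gene, not normalized. Among the tools in the submitters' processing notes are featureCounts 2.0.3, HISAT2 2.2.1 and DESeq2 1.40.2, with mm10 as build. No source used here gives the annotation release or the strand and multi-mapping settings. Symbols, exon lengths and coordinates are from GENCODE M21 (GRCm38), promoters from RefSeq. One listed gene, Eppk1, has no row and is not analysed here.

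Genes were kept by filterByExpr (minimum count 10, minimum total 15), scaled by TMM and tested with edgeR 4.0.16 (quasi-likelihood, robust, group as the only term), with Benjamini-Hochberg adjustment over 13442 genes. CPM uses TMM-adjusted totals, and RPKM divides it by merged exon length. SD is over 3 libraries. The test was also run on simulated counts with few changed genes, drawn from the fitted dispersions. That run does not cover data in which 42.5% of genes are called. The 10 genes, the lists and the tests were chosen with earlier results of these data known. Genes were named by rule: the 10, Cdk10, Cdh1, Epcam, the 3 smallest p-values of each list (all calls of a list with under 4) and the 3 nearest profiles; others are marked, and some genes the rule gives are not reported here. Alternatives were DESeq2 1.42.0 and its size factors, limma-voom (limma 3.58.1), 2 other filters, non-robust dispersions, a loess correction (span 0.5) for GC content and transcript length, a replicate block, and each library left out in turn.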

Additional observations from a re-analysis of the deposited data

How the results depend on the processing

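The calls of the 5 rises and 1 fall among the 9 tested genes were made in all 15 alternatives, with log2 fold changes of 0.89 to 1.00 for Snai1, -0.46 to -0.39 for Snai2, 0.09 to 0.18 for Zeb2, 0.23 to 0.28 for Twist1, 0.59 to 0.67 for Krt18 and 0.45 to 0.56 for Krt20. Zeb1 turned to -0.004 with the GC and length correction, with and without the replicate block. Leaving out 1 library gave 1 to 2 falls among the members. The second was Vim at -0.05 without sgControl replicate 3 (-0.06 to -0.03 over the left-out libraries). The difference between the groups in the log2 ratio of Krt18 to Krt8 ran from -0.30 to 0.15 and so changed sign. The ratio itself stayed far above 0 in every library. The cause of the change in sign was not tested. Rises among the surrounding lists numbered 41, but 35 with DESeq2 and 33 to 40 with a library left out. With the replicate block and the GC and length correction together they numbered 34. Falls among these lists numbered 11, but 5 with DESeq2 and 6 to 11 with a library left out. All calls numbered 5717, 4179 with DESeq2 and 4791 to 6056 with a library left out; the GC and length correction gave 2665 higher and 3222 lower, against 2970 and 2747. Lost or gained calls of other genes named here stand with their values in the results above. With the replicate block, 5481 genes were called, and the log2 fold changes of Snai1, Snai2, Zeb2, Twist1, Krt18 and Krt20 were 0.94, -0.42, 0.17, 0.25, 0.65 and 0.51, all called, and among other genes named here only Krt10 lost its call (adjusted p = 0.0526); with the block and the GC and length correction together Timp1 (adjusted p = 0.221) and Krt10 (adjusted p = 0.0527) were not called. Deviations from the group means had correlations of 0.025, -0.057 and -0.096 between libraries of the same number, and sgCdk10 replicate 2 was closest to sgControl replicate 3 (0.113), so nothing shows that the numbers pair the samples. Depth limits Krt8, Krt19 and Cdh1, with at most 12 counts in a library.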

Other observations

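Some genes typical of mesenchyme had few or no counts, while some matrix genes of the mesenchymal list were high. Col1a2, a collagen gene, stood at 1425 ± 11.8 CPM in sgCdk10 and 1333 ± 77.9 in sgControl. Sparc, also of the matrix, stood at 283 ± 5.28 CPM in sgCdk10 and 244 ± 5.2 in sgControl. Acta2, the smooth muscle actin gene of myofibroblasts, and Mmp2, a matrix metalloproteinase, had 0 counts in all 6 libraries, and Tagln had at most 2 counts in sgCdk10 and 6 in sgControl. Cdh11, a cadherin of mesenchyme, had at most 4 counts in any library. Cdh17, the intestinal cadherin, was tested and stood at 5.13 ± 0.0574 CPM in sgCdk10 and 3.65 ± 0.751 in sgControl (SD, n = 3 each). Its log2 fold change was 0.49 (SE 0.15, edgeR adjusted p = 0.00913). DESeq2 did not call it (adjusted p = 0.0637), and edgeR did not without sgControl replicate 2 (adjusted p = 0.0508). Cdh1 was below the floor of detection, and Cdx2 had at most 10 counts in any library. These genes were chosen after their values were seen.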
